A study of Homo sapiens with 12 samples.

Results

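Keratins are the proteins of the intermediate filaments of epithelial cells, and the 9 keratin genes described here are KRT5, KRT7, KRT8, KRT17, KRT18, KRT19, KRT23, KRT80 and KRT81. They were chosen by gene symbol, as 9 of the 20979 entries of a table of transcript levels covering 12 libraries. Earlier results of these data were known when they were chosen, so shares of calls among them are descriptions only. The libraries come from 3 established human kidney lines, the renal cancer lines A704 and CAKI-1 and the line HK2, which was derived from normal kidney and immortalised. Each line was given 4 reagents at 25 nM for 48 hours, namely a non-targeting control siRNA, an siRNA called LATS, and a pair of siRNAs against PTPN14, PTPN14-1 and PTPN14-2. PTPN14 is a protein tyrosine phosphatase that binds the Hippo pathway effector YAP, and LATS1 and LATS2 are the kinases that phosphorylate YAP. Polyadenylated RNA was sequenced once for each line and reagent. The samples are whole cultures of a single line, so the lines are compared over 4 libraries that differ in siRNA, and each siRNA is compared with the control over 3 lines. The labels do not say whether the libraries of a line came from separate cultures, so p-values speak for how these libraries vary and no further. The lines were also grown in 3 different media, and line and medium cannot be told apart. The labels do not name which LATS gene the LATS siRNA was designed against. Their titles and descriptions number the PTPN14 siRNAs in opposite ways, and the numbers used here are those of the titles.

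A keratin filament is built from pairs in which a type I chain joins a type II chain. KRT8 (type II) and KRT18 (type I) form the pair of simple epithelia such as the kidney tubule, KRT7 (type II) and KRT19 (type I) accompany them in ducts and in many carcinomas, and KRT5 (type II) and KRT17 (type I) belong to basal and stratified epithelia. KRT80 is a type II keratin found in many epithelia near desmosomes, the junctions that anchor keratin filaments at the cell surface, KRT23 is a type I keratin, and KRT81 is a type II keratin of the hair. Filaments are held together only while both types are present, and an unpaired chain is usually degraded.

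In the GENCODE v29 annotation of GRCh38, the 5 type II genes studied lie on chromosome 12, KRT80 at chr12:52168996-52192000 (minus strand), KRT7 at chr12:52232520-52252186 (plus strand), KRT81 at chr12:52285913-52291534 (minus strand), KRT5 at chr12:52514575-52520687 (minus strand) and KRT8 at chr12:52897187-52949954 (minus strand). KRT18, at chr12:52948871-52952901 on the plus strand, is the type I gene that lies beside its partner, and the annotated spans of KRT8 and KRT18 overlap on opposite strands. The other type I genes are on chromosome 17, KRT23 at chr17:40922696-40937634, KRT19 at chr17:41523617-41528308 and KRT17 at chr17:41619441-41624842, each on the minus strand. Reads can be hard to assign within this family. GENCODE names 50 pseudogenes after KRT8 and 68 after KRT18, and 45.6% of the 50-base windows of the KRT8 coding sequence and 38.8% of those of KRT18 also occur in transcripts of other genes. The share is 1.25% for KRT7, 1.22% for KRT80 and 2.09% for KRT19. The annotated span of KRT7 also overlaps that of KRT86 on the same strand, and the part of this overlap in KRT7 levels was not tested. The setting of the authors' read counting, including strand, is not given in the sources used here, so levels of KRT8 and KRT18 are the less certain ones.

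KRT81 is the member most easily mixed up with a neighbour. Its gene lies within the span of KRT86 (chr12:52249300-52309163, plus strand), and over 1451 aligned coding bases the pair is identical at 1351, or 93.11%. The stretch of 120 coding bases (1207 to 1326 of the KRT81 coding sequence) in which they differ most is shown because only such stretches assign a read to 1 of them. Both are read 5′ to 3′ from the GENCODE v29 transcripts, with the 19 differing bases in capitals.
KRT81: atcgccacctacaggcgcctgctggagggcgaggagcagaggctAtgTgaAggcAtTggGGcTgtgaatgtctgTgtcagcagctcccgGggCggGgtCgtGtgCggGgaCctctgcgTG
KRT86: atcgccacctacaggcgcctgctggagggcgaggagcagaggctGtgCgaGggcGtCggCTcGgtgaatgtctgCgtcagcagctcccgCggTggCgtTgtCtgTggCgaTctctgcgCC
The window opens with a long run that is identical in both, and 57.2% of the 50-base windows of the KRT81 coding sequence occur in transcripts of other genes.

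PTPN14 and LATS1 were lower in every line with the siRNAs named after them. PTPN14 was at 21.4% to 28.7% of the control of the same line with PTPN14-1 and at 31.2% to 37.5% with PTPN14-2. LATS1 was at 22.5% to 30.7% with the LATS siRNA, whereas LATS2 was at 98.2% to 122%. Read depth was estimated from the steps between low values at 16.96 to 23.32 M (mega) reads per library, and 10862 to 11082 genes were above an FPKM of 1 in each library (a level scaled to transcript length and to library size). Of 9 markers of kidney epithelium, 6 were above an FPKM of 1 in all 4 libraries of A704, 5 in HK2 and 4 in CAKI-1, with PAX8 and CDH6 above it in every library. CDH1 reached this level only in A704 (16.0 to 21.4) and EPCAM only in HK2 (24.7 to 33.0). No endothelial or smooth muscle marker was above an FPKM of 1 in all libraries of a line, with sums of at most 0.47 and 1.11. Among 6 immune markers, CD68 was above it in all 3 lines and ITGAM in A704 (sums of 136 to 200 in A704, 31.8 to 43.5 in HK2 and 18.02 to 25.6 in CAKI-1), while PTPRC was at most 0.04. Of 6 fibroblast markers, LUM and DCN were present in HK2 (sum of the list 54.6 to 83.5, against 0.74 to 1.52 in A704 and 1.19 to 2.56 in CAKI-1), with COL1A2 and COL3A1 at 0 there. The part of these markers in the line differences below was not tested.

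The first comparison asked how the keratins differ between the lines. KRT8, KRT18 and KRT80 were highest in A704. KRT19 was highest in HK2 and low in CAKI-1, and KRT7 was low in all lines and lowest in HK2. KRT5, KRT17, KRT23 and KRT81 were under an FPKM of 1 in every library. The filter on low values, an FPKM above 1 in at least 3 libraries, thus left 5 of the 9 genes for the test. Differences are given on the log2(FPKM + 1) scale from limma, fitted on all 12276 genes past the filter with line and reagent as terms, and p-values were adjusted by the Benjamini-Hochberg method over those genes. Between A704 and HK2, 5 of these 5 genes passed an adjusted p of 0.05 (84.6% of all genes tested), 4 of them higher in A704 (40.6% of all genes). Between A704 and CAKI-1, 5 of 5 were higher in A704, against 81.1% of all genes called either way and 39.3% called higher. Between CAKI-1 and HK2 it was 3 of 5 (81.7% of all genes). Since the background is so high, a call between lines sets no keratin apart, and the size of each difference is given beside the share of genes with a larger one.

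**Figure D1:**
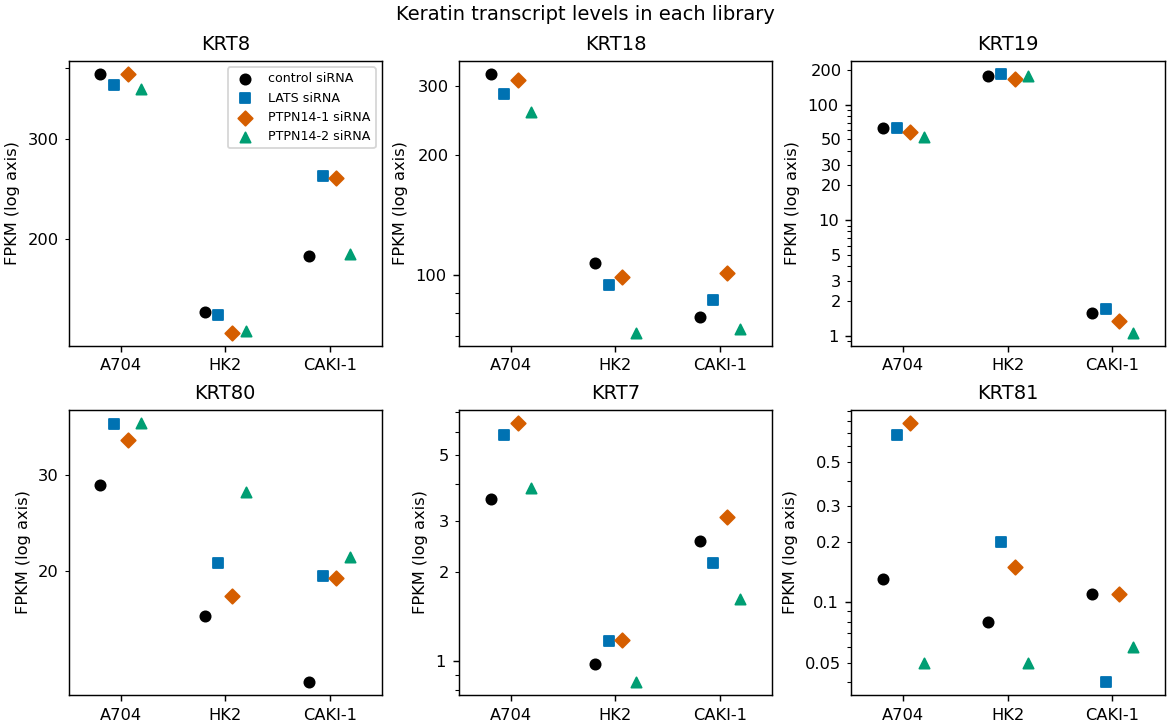
Transcript level of 6 keratins in each of the 12 libraries, as FPKM on a log axis that differs between panels, with lines along the horizontal axis and a symbol for each siRNA. KRT19 spans from 1.06 in CAKI-1 to 184 in HK2, and the 4 A704 libraries are highest for KRT8, KRT18 and KRT80.

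KRT8 was the most abundant of the type II genes in every library, with 82.7% to 92.5% of their summed FPKM. In A704 its level was 390 with control, 373 with LATS, 389 with PTPN14-1 and 367 with PTPN14-2 siRNA. In HK2 the levels were 149, 147, 137 and 138 in the same order, and in CAKI-1 they were 186, 258, 256 and 188. The 3 lines did not overlap, and the CAKI-1 libraries were spread widest, with those given LATS and PTPN14-1 well above the other pair. As means over the 4 libraries, KRT8 stood at 380 ± 11.6 (SD, n = 4) for A704, 142 ± 6.14 for HK2 and 222 ± 40.4 for CAKI-1. A704 was above HK2 by 1.41 (SE 0.09, limma adjusted p = 7.44e-09) and above CAKI-1 by 0.79 (SE 0.09, adjusted p = 3.87e-06), and CAKI-1 was above HK2 by 0.62 (SE 0.09, adjusted p = 3.59e-05). Larger differences were measured for 18.7%, 34.4% and 47.3% of genes.

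KRT18, the partner of KRT8, followed it in A704 but not in CAKI-1. Its level in A704 was 321 with control, 286 with LATS, 310 with PTPN14-1 and 258 with PTPN14-2 siRNA. It was 107, 94.2, 98.7 and 71.3 in HK2 and 78.2, 86.2, 101 and 73.0 in CAKI-1, so these lines overlapped each other and lay far under A704. A704 was higher than HK2 by 1.66 (SE 0.08, adjusted p = 3.63e-10) and higher than CAKI-1 by 1.79 (SE 0.08, adjusted p = 2.59e-10), a size exceeded by 8.06% of genes. CAKI-1 minus HK2 was -0.13 (95% interval -0.31 to 0.05, adjusted p = 0.165), which did not pass the test. Larger differences were measured for 13.8% of genes between A704 and HK2 and for 87.3% between CAKI-1 and HK2.

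KRT19, a type I keratin without the usual tail domain, showed the widest range. Its level was 178 with control, 184 with LATS, 165 with PTPN14-1 and 175 with PTPN14-2 siRNA in HK2, and 62.7, 62.6, 57.9 and 52.6 in A704. In CAKI-1 it was 1.57, 1.70, 1.34 and 1.06. The 3 lines did not overlap. CAKI-1 minus HK2 was -6.20 (SE 0.07, adjusted p = 8.31e-16), and 0.0896% of genes differed more between these lines. A704 was above CAKI-1 by 4.64 (SE 0.07, adjusted p = 4.88e-15, with 0.652% of genes differing more). A704 minus HK2 was -1.56 (SE 0.07, adjusted p = 8.20e-11, with 15.4% of genes differing more). Measured as a rank among all entries, KRT19 stood between 239 and 282 in HK2, between 824 and 1073 in A704 and between 10281 and 10889 in CAKI-1.

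KRT80 was at 28.8 with control, 37.2 with LATS, 34.8 with PTPN14-1 and 37.4 with PTPN14-2 siRNA in A704. In HK2 it was 16.5, 20.6, 17.97 and 27.9, and in CAKI-1 it was 12.5, 19.6, 19.4 and 21.2. Every A704 library was above every library of the other lines, while HK2 and CAKI-1 overlapped. A704 was higher than HK2 by 0.73 (SE 0.09, adjusted p = 4.69e-06) and higher than CAKI-1 by 0.91 (SE 0.09, adjusted p = 6.15e-07). These sizes were exceeded by 46.6% and 28.2% of genes. CAKI-1 minus HK2 was -0.18 (95% interval -0.38 to 0.01, adjusted p = 0.0794), a size exceeded by 82.3% of genes. This last difference passed the test without the HK2 library given PTPN14-1 (-0.26, adjusted p = 0.0200) or without the CAKI-1 library given PTPN14-1 (-0.25, adjusted p = 0.0347).

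KRT7, the type II keratin of ducts, was present at a low level. It was 3.55 with control, 5.87 with LATS, 6.42 with PTPN14-1 and 3.88 with PTPN14-2 siRNA in A704, then 0.98, 1.17, 1.18 and 0.85 in HK2, and 2.56, 2.15, 3.09 and 1.62 in CAKI-1. The 3 lines did not overlap. A704 was above HK2 by 1.51 (SE 0.11, adjusted p = 2.04e-08) and above CAKI-1 by 0.81 (SE 0.11, adjusted p = 1.48e-05), and CAKI-1 was above HK2 by 0.70 (SE 0.11, adjusted p = 5.49e-05). In the same order, 16.5%, 33.2% and 42.1% of genes differed more.

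The remaining members were at or near the limit of detection. KRT17 was listed at 0 in all 4 HK2 libraries and reached at most 0.11, in A704 with PTPN14-1. KRT5 was at 0 in every library except A704 with LATS siRNA (0.02). KRT23 has 2 rows, 1 of them at 0 throughout, and the other reached at most 0.06. KRT81 was higher than these but still low. In A704 its level was 0.13 with control, 0.68 with LATS, 0.78 with PTPN14-1 and 0.05 with PTPN14-2 siRNA, which the estimated depth converts into about 5, 28, 28 and 2 reads. It was between 0.05 and 0.20 in HK2 and between 0.04 and 0.11 in CAKI-1, or at most 7 reads. The A704 libraries given LATS and PTPN14-1 thus held the most KRT81 reads. KRT86 in A704 was at 0.16, 0.29, 0.52 and 0.28 in the same order, about 8, 15, 23 and 13 reads, and at most 0.05 in the other lines. In a fit without the filter no change of KRT81 passed the test (adjusted p = 0.392 for PTPN14-1, 0.886 for PTPN14-2 and 0.689 for LATS, each against control).

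The ratio of type II to type I FPKM differed between the lines. Summed FPKM of the type II members was 1.10 to 1.31 times that of the type I members in A704. This was 0.583 to 0.675 times in HK2 and 2.53 to 3.18 times in CAKI-1. Other keratins past the filter (KRT10, KRT15, KRT79 and KRT222) were left out, of which KRT10 was at 8.41 to 10.9 in CAKI-1. KRT19 made up 15.7% to 17.9% of the type I sum in A704, 62.4% to 71.1% in HK2 and 1.31% to 1.97% in CAKI-1. The ratio of KRT8 to KRT18 was 1.299 ± 0.0905 (SD, n = 4) for A704, 1.56 ± 0.257 for HK2 and 2.62 ± 0.261 for CAKI-1. Within each line it was lowest in the control library, at 1.21, 1.38 and 2.38. The siRNA libraries were above their control in 9 of 9 cases, although in HK2 with PTPN14-1 the ratio rounds to the same 1.38. Libraries of a line share the same control, so these cases are not independent. The ratio was highest with PTPN14-2 in A704 (1.42) and HK2 (1.93), and with LATS in CAKI-1 (2.996). Together the members made up 0.200% to 0.229% of the summed FPKM in A704, 0.116% to 0.131% in HK2 and 0.0719% to 0.0963% in CAKI-1. These ratios were not tested. FPKM is scaled to transcript length, and the lengths used in counting are unknown. In GENCODE v29 the joined exons span 6881 bases for KRT8 and 3218 for KRT18. Of their 50-base coding windows, 45.6% and 38.8% are shared with transcripts of other genes. The absolute size of a ratio between genes is thus uncertain, and it cannot show which keratin type was in excess in a line.

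**Figure D2:**
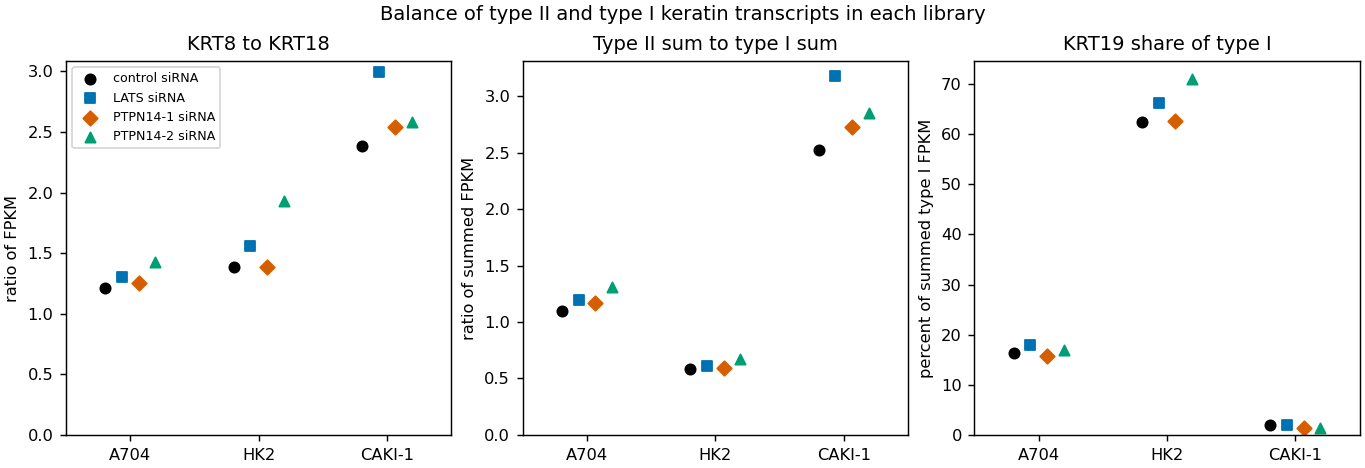
Balance of keratin types in each library by line and siRNA, with sums taken over the members only. Shown are the ratio of KRT8 to KRT18 and the ratio of summed type II to summed type I FPKM. The last panel is the share of KRT19 in the type I sum. HK2 has the lowest ratio of type II to type I (0.583 to 0.675) and the highest KRT19 share, and CAKI-1 the reverse.

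The second comparison asked which keratins changed when PTPN14 or LATS was lowered. KRT80 was called higher with PTPN14-2 and was not called with the other siRNAs. That call was lost in 4 of 12 fits that left out 1 library. None of the other 4 tested keratins passed the test against control with any siRNA, and the PTPN14 siRNAs differed from each other in KRT7 and KRT18. The 3 comparisons with control share the same control libraries, so agreement between them is partly built in and their values are set side by side.

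KRT80 was above the control of its line in 9 of 9 siRNA libraries, at 109% to 170% of it. With PTPN14-2 A704 reached 130% of control, HK2 169% and CAKI-1 170%. With PTPN14-1 it was at 121%, 109% and 155%, and with LATS at 129%, 125% and 157%, in the same order of lines. In CAKI-1 all 3 siRNA libraries lay well above the control, whereas in HK2 the library given PTPN14-2 stood above the other 3. The fitted change was 0.60 with PTPN14-2 (SE 0.10, 95% interval 0.38 to 0.83, limma adjusted p = 0.0153), and 0.554% of genes changed more in either direction. This is 1 of 5 tested keratins, against 1.35% of all genes called and 0.448% called higher. The change was 0.33 with PTPN14-1 (SE 0.10, 95% interval 0.10 to 0.55, adjusted p = 0.0882) and 0.42 with LATS (SE 0.10, 95% interval 0.20 to 0.65, adjusted p = 0.192). These sizes were exceeded by 8.99% and 0.831% of genes. The difference between the PTPN14 siRNAs was -0.28 (PTPN14-1 minus PTPN14-2, SE 0.10, adjusted p = 0.107). The PTPN14-2 call was lost without either of the HK2 libraries compared (0.49, adjusted p = 0.0780, without PTPN14-2, and 0.64, adjusted p = 0.0632, without control) and without either of the CAKI-1 libraries (0.62, adjusted p = 0.0663, without PTPN14-2, and 0.51, adjusted p = 0.110, without control). It was lost as well when all genes were tested without the filter (adjusted p = 0.0669), while the estimate stayed between 0.49 and 0.70 whichever single library was left out.

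**Figure D3:**
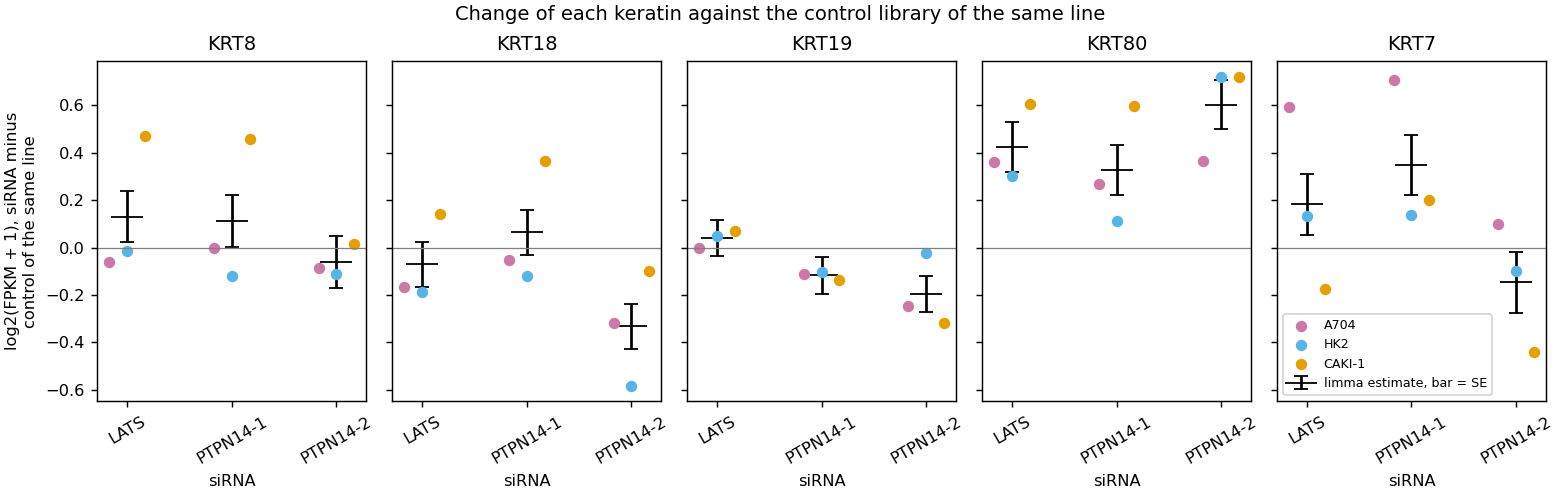
Change of 5 keratins with each siRNA against the control of the same line, as a difference of log2(FPKM + 1), with a point for each line and a black bar for the limma estimate with its standard error. KRT80 lies above 0 in all 9 comparisons, and KRT18 lies under 0 in all 3 lines with PTPN14-2.

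KRT18 with PTPN14-2 stood at 80.2% of the A704 control, 66.4% of the HK2 control and 93.4% of the CAKI-1 control, and this library was the lowest of 4 in every line. The fitted change was -0.33 (SE 0.10, 95% interval -0.54 to -0.13), which did not pass the test (adjusted p = 0.118). With PTPN14-1 it was at 96.5%, 92.0% and 129% of control (0.06, adjusted p = 0.737), and the sign of this small estimate turned under quantile normalisation (-0.05). With LATS it was at 89.2%, 87.7% and 110% (-0.07, adjusted p = 0.805).

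The PTPN14 siRNAs were then compared with each other, since both aim at the same transcript. KRT18 was higher with PTPN14-1 than with PTPN14-2 in all 3 lines, by 0.40 (SE 0.10, adjusted p = 0.0182), and KRT7 likewise by 0.49 (SE 0.13, adjusted p = 0.0258). That makes 2 of 5 tested keratins called, both higher, where 11.7% of all genes were called and 5.52% were higher. KRT7 with PTPN14-1 was at 181% of control in A704 and 121% in CAKI-1, and with PTPN14-2 at 109% and 63.3%. Against control KRT7 changed by 0.35 with PTPN14-1 (SE 0.13, adjusted p = 0.129), -0.15 with PTPN14-2 (adjusted p = 0.638) and 0.18 with LATS (adjusted p = 0.611), none of them past the test.

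Both of these differences rest on few libraries. The KRT18 difference lost its call without the HK2 library given PTPN14-2 (adjusted p = 0.102), without the CAKI-1 library given PTPN14-1 (adjusted p = 0.0846) and under quantile normalisation (0.31, adjusted p = 0.0774). The KRT7 difference lost it without either PTPN14 library of A704 (adjusted p = 0.0803 without PTPN14-2 and 0.0912 without PTPN14-1), without either of CAKI-1 (adjusted p = 0.115 and 0.0818) and without the filter (adjusted p = 0.0684).

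KRT8 did not change detectably over the 3 lines with any siRNA. The estimates were 0.11 with PTPN14-1 (95% interval -0.12 to 0.35, adjusted p = 0.580), -0.06 with PTPN14-2 (-0.30 to 0.18, adjusted p = 0.841) and 0.13 with LATS (-0.11 to 0.37, adjusted p = 0.667). CAKI-1 was the line in which KRT8 was above control, at 139% with LATS, 137% with PTPN14-1 and 101% with PTPN14-2, while A704 and HK2 lay between 92.0% and 99.9%. KRT19 was under the control of its line in 6 of 6 PTPN14 libraries, with A704 at 84.0% to 92.5%, HK2 at 93.0% to 98.5% and CAKI-1 at 67.5% to 85.4%. Its estimates were -0.12 with PTPN14-1 (adjusted p = 0.398), -0.20 with PTPN14-2 (adjusted p = 0.256) and 0.04 with LATS (adjusted p = 0.870).

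With PTPN14-1, limma called 0 of the 5 tested keratins against 5.87% of all genes. KRT7 and KRT80, 2 of the 5, were under 0.05 before adjustment, as were 2801 of all 12276 genes. With LATS it called 0 of 5 against 0.122% of all genes. KRT80, 1 of the 5, was under 0.05 before adjustment, as were 1381 of all 12276 genes. A further limma F test asked whether the change with the PTPN14 siRNAs differed between lines. Its spread came only from the difference between the PTPN14 siRNAs within each line, so it cannot show that the lines changed alike. The test called 0 of the 12276 genes (0%), with 106 at an unadjusted p under 0.05, none of them a member. KRT80 estimates in that fit were 0.32 for A704, 0.42 for HK2 and 0.66 for CAKI-1, with an SE of 0.25 for each and 3 residual degrees of freedom.

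**Figure D4:**
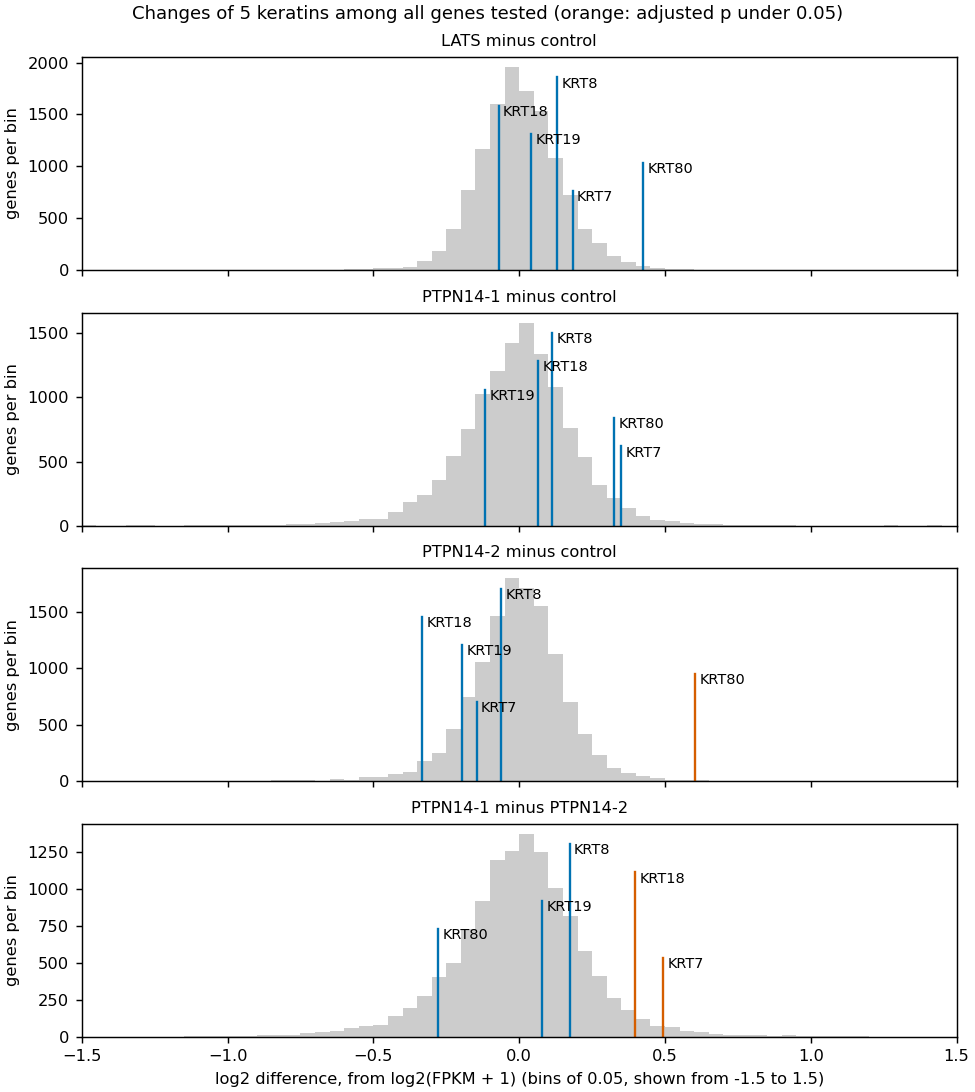
Distribution of the change of all 12276 tested genes for 4 siRNA comparisons (number of genes per bin of 0.05 on the log2 scale), with the 5 tested keratins as vertical lines, in orange where the adjusted p was under 0.05. KRT80 with PTPN14-2, at 0.60, lies far out in its distribution, and 0.554% of genes changed more.

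Beyond these members, the table holds 46 other keratin genes, of which 15 were at 0 in every library and 27 were above 0 without passing the filter, at most 0.89. KRT10, a type I keratin of differentiated epidermis, was at 6.87 with control, 5.05 with LATS, 5.18 with PTPN14-1 and 5.64 with PTPN14-2 siRNA in A704. It was 6.47, 6.03, 4.74 and 5.69 in HK2 and 10.9, 9.63, 8.41 and 8.64 in CAKI-1, under its control in 9 of 9 siRNA libraries, which share a control within each line. With PTPN14-1 it fell by 0.36 (SE 0.08, adjusted p = 0.0264), but the call held in 7 of 12 fits that left out 1 library, with adjusted p up to 0.116, and was lost without the filter (adjusted p = 0.0508). KRT15, a type I keratin of basal cells, was between 1.11 and 4.78, and no change with an siRNA passed the test. KRT79 passed the filter through HK2 alone (1.07 to 2.33, at most 0.05 elsewhere), and KRT222 through CAKI-1 alone (1.18 to 2.12, at most 0.14 elsewhere).

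Calls between lines among genes that anchor keratin filaments stand beside a high background, since of all genes 84.6% were called for A704 against HK2, 81.1% for A704 against CAKI-1 and 81.7% for CAKI-1 against HK2. Of 14 desmosome genes 7 passed the filter, 4 higher and 3 lower in A704 than in HK2, and 6 higher and 0 lower in A704 than in CAKI-1, with medians of 1.63 and 0.76 against -0.04 and -0.03 over all genes. DSP, the desmoplakin that ties keratin to the desmosome, was at 4.67 to 6.71 in A704, 0.34 to 0.66 in HK2 and 0 to 0.02 in CAKI-1. It was higher in A704 than in HK2 by 2.20 and than in CAKI-1 by 2.77 (SE 0.08 for each). DSP passed the filter through A704 alone, and the desmosome gene DSC2 through HK2 alone (1.33 to 2.34, at most 0.83 elsewhere). Calls of DSP as higher in A704 and of DSC2 as higher in HK2 were thus set by the filter. The counts and medians of desmosome genes include both. PKP2, a desmosomal plaque protein, was higher in A704 by 1.71 and 1.58 (SE 0.09 for each). CAKI-1 against HK2 gave 2 higher and 4 lower desmosome genes, and PERP and DSG2 were the higher ones (1.04 and 0.75).

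Among 8 tested plakins and linkers of keratin filaments, 3 were higher and 3 lower in A704 than in HK2, 4 higher and 2 lower in A704 than in CAKI-1, and 2 higher and 3 lower in CAKI-1 than in HK2, shares that do not exceed those over all genes (84.6%, 81.1% and 81.7%). EVPL and PPL, which encode the partners envoplakin and periplakin, ran in opposite directions. EVPL was at 2.80 to 3.97 in HK2 and at most 0.03 in CAKI-1, while PPL was at 3.70 to 6.59 in CAKI-1 and at most 0.18 in HK2. Of 6 tested hemidesmosome genes, which tie keratin to the basement membrane, 4 were higher and 2 lower both in A704 and in CAKI-1 than in HK2, and A704 had 3 higher and 1 lower than CAKI-1, beside the same shares over all genes. ITGB4, the integrin chain of the hemidesmosome, was at 16.1 to 22.9 in A704 and 0.95 to 1.52 in HK2. Of 6 tested epithelial transcription and splicing regulators, ESRP2 was at 9.45 to 12.3 in HK2, 5.72 to 6.53 in A704 and at most 0.10 in CAKI-1, while ELF3 was highest in CAKI-1 (36.0 to 54.2).

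With the siRNAs few of these listed genes were called. DSG2, a desmosomal cadherin, rose with PTPN14-1 by 0.44 (SE 0.10, adjusted p = 0.0231), as 1 of 7 desmosome genes (5.87% of all genes were called), and 0 of 8 plakins and linkers were called with any siRNA. The DSG2 call was lost without the filter (adjusted p = 0.0619) and under quantile normalisation (adjusted p = 0.0503). No gene of these lists was called with PTPN14-2 or with LATS against control, where 1.35% and 0.122% of all genes were called. Between the PTPN14 siRNAs, VIM (0.34, SE 0.10, adjusted p = 0.0386) and the transcription factor KLF4 (0.41, SE 0.12, adjusted p = 0.0477) were higher with PTPN14-1. The kidney epithelial markers CDH16 (-0.53, SE 0.12, adjusted p = 0.0142) and CDH6 (-0.61, SE 0.18, adjusted p = 0.0486) were lower with it, 2 of 8 tested, where 11.7% of all genes were called in either direction. Leaving out 1 library at a time ended these 5 calls in between 2 and 9 of 12 fits, KLF4 and CDH6 most often. Without the filter VIM, KLF4 and CDH6 also lost theirs (adjusted p = 0.0727, 0.101 and 0.108), and under quantile normalisation VIM (0.20, adjusted p = 0.110) and CDH6 (adjusted p = 0.0516) did.

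The genes most like each keratin over the 12 libraries, by Pearson's r of log2(FPKM + 1), were SNX33 for KRT8 (r = 0.98), CNNM3 for KRT18 (0.99), PPP5C for KRT19 (1.00), FAAP24 for KRT80 (0.95) and NOD1 for KRT7 (0.98). With each line centred, which removes the mean difference between lines, the most alike were ATOH8 for KRT8 (0.92), DDI2 for KRT18 (0.94), DHPS for KRT19 (0.96), GNG4 for KRT80 (0.93) and TRMT44 for KRT7 (0.94). Between members on this centred scale, KRT8 and KRT18 gave r = 0.62 and KRT80 and KRT18 gave -0.50. These are descriptions over 12 libraries that share lines and reagents, chosen from 12276 genes.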

How the data were processed

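Levels were taken from the 1 table of the series, which the authors deposited with a column for each of the 12 libraries. The unit FPKM was inferred from the deposited values. Reads were aligned with STAR 2.4.0g1, per the submitters' processing notes, with a stranded kit per the labels' protocols. The counter, like the annotation, is not given in the sources used here. Of 20979 entries (19156 symbols), 12276 were above an FPKM of 1 in at least 3 libraries. Values were turned into log2(FPKM + 1), with a pseudocount of 1, and fitted with limma 3.58.1 in R 4.3.3 (trend and robust moderation, 6 residual degrees of freedom) with line and reagent as terms, p-values being adjusted over all genes tested at a threshold of 0.05. Libraries were paired because the same line was given every reagent. The step was tested on simulated data. The titles and the descriptions of the labels number the PTPN14 siRNAs in opposite ways, and the titles were followed. Depth was estimated from the whole-read steps of 36 to 74 single-exon genes per library, of whose values 80.0% to 95.8% lay on a step (median over other depths 8.33% to 12.5%). A count test was not run. Beyond the members, the genes named were other keratins past the filter, up to 4 per list and comparison with the smallest p among those called, marker genes, and those most like each keratin; some listed genes are not reported here. The members and lists were chosen with earlier results of these data known. Alternatives were other pseudocounts (0.1 and 0.5), no filter, other scalings, other moderation, no line term and leaving out libraries or lines.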

Additional observations from a re-analysis of the deposited data

Results flagged for a closer look

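KRT8 was flagged because the sign of its change with the PTPN14 siRNAs differed between lines. In CAKI-1 both PTPN14 libraries were above the control, with a mean change of 0.24 on the log2(FPKM + 1) scale. Both were under the control of their line in A704 (-0.045) and in HK2 (-0.11). Some of these changes were very small, with PTPN14-2 at 0.015 in CAKI-1 and PTPN14-1 at -0.0015 in A704. PTPN14-1 in CAKI-1 was at 0.46. The LATS libraries had the same signs, at 0.47 in CAKI-1, -0.061 in A704 and -0.016 in HK2. They were set against the same control library of each line, so these signs are not independent of those with PTPN14. The opposite signs were not tested pair by pair. The F test takes its spread from the difference between the PTPN14 siRNAs within each line, so it cannot show that the lines changed alike. The limma F test over all 3 lines gave an unadjusted p of 0.448 and an adjusted p of 1.00, with an SE of 0.19 for each line. No library lay apart from the others in the 15 groups of 4 libraries (5 keratins in 3 lines) by Dixon's criterion, which chance alone meets in about 1 of 20 groups.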

How the results depend on the processing

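Among the keratin counts, those of the line comparisons stayed within 1.5 times their value under every alternative run (5, 5 and 3 of 5 as reported, with 3 to 4 for CAKI-1 against HK2 when 1 library was left out). The counts for PTPN14-1 and LATS against control stayed at 0. The count for PTPN14-2 against control went from 1 to 0 with no filter and to 0 with no replicate block (no line term), and ranged from 0 to 1 when libraries or lines were left out. The count for PTPN14-1 against PTPN14-2 went from 2 to 1 with no filter, 1 under quantile normalisation and 0 with no replicate block, and ranged from 0 to 2 in the leave-outs. Without the line term, limma called 0 genes in each siRNA comparison, with 66, 31, 10 and 119 at an unadjusted p under 0.05 for PTPN14-1, PTPN14-2 and LATS against control and PTPN14-1 against PTPN14-2. Testing 17167 genes without the filter called 355, 60 and 3 genes for the 3 comparisons with control in place of 720, 166 and 15. No called value changed sign, and uncalled estimates near 0 (KRT7, KRT8, KRT18) did in 12 cases. At the estimated depth KRT5, KRT17 and KRT23 lie at a few reads or none, and differences among them were not detectable.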

Other observations

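Levels of the other intermediate filament genes varied by line. VIM, the vimentin of mesenchymal and many cultured cells, was above every keratin in every library, at 1503 to 1590 FPKM in A704, 788 to 1139 in CAKI-1 and 318 to 441 in HK2. Genes of neuronal filaments were present in single lines. NEFH was at 39.8 to 45.9, INA at 33.3 to 42.5 and the stem cell filament gene NES at 17.4 to 19.7 in HK2, against at most 0.09, 0.26 and 0.57 in the other lines. NEFL was at 16.5 to 20.6 in A704 and at most 0.62 elsewhere. Of the 11 tested genes of this list, 4 were higher and 5 lower in A704 than in HK2. In CAKI-1 against HK2, 5 were higher and 5 lower. These shares were near the 84.6% and 81.7% of all genes called in these comparisons. NEFH, INA and NES passed the filter through HK2 alone, and NEFL through A704 alone. Their calls as higher in those lines were thus set by the filter and are part of these counts.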
